A study of Mus musculus with 12 samples.

Results

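The genes described here are 10 mouse genes whose products carry fatty acids into liver cells or build them into triglyceride: Cd36, Vldlr, Slc27a2, Fabp1, Fabp2, Gpam, Lpin1, Mogat1, Dgat1 and Dgat2. They were chosen by name from what is known of the pathway, and they make up 10 of the 55359 genes in the count table. RNA-seq reads were counted per gene in 12 libraries from liver sections of male C57BL/6NTac mice, 4 in each of 3 groups. The NM-FGF19 mice were kept on a high-fat diet and given mRNA for NM-FGF19, a non-mitogenic form of the gut hormone FGF19. HFD control mice ate the same diet with a control mRNA. Lean mice ate normal chow, also with a control mRNA. All groups therefore received mRNA in lipid nanoparticles, injected weekly for 6 weeks, and no group went without particles. The livers were collected 24 hours after the final dose. The labels state an age of 24 weeks, and they give 21 weeks of diet before dosing in one field and 28 weeks of feeding in another. The columns of the HFD controls carry the name mOX40L in the deposited table and those of lean mice do not, so a difference in the control mRNA between these groups cannot be told apart from the diet. In NM-FGF19 against HFD control, an effect of NM-FGF19 mRNA cannot be told apart from one of the control mRNA. Libraries are named here by group and by the replicate number in the labels.

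A hepatocyte takes up fatty acids from the blood with the help of membrane proteins such as CD36 and the SLC27 transporters, and it takes up lipoprotein lipid through receptors such as VLDLR. Small binding proteins of the FABP family carry the fatty acid inside the cell. Triglyceride is then made by adding fatty acids to glycerol 3-phosphate, with GPAM at the first step, LPIN1 removing the phosphate and the DGAT enzymes adding the last chain. MOGAT1 reaches the same diacylglycerol from monoacylglycerol. In mouse liver Cd36 and Mogat1 are known as targets of the nuclear receptor PPARγ, and Fabp1 is known as a target of PPARα.

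Of the 10 genes, 4 rose in HFD control livers relative to lean livers, where 8.33% of all genes tested were called: Cd36, Vldlr, Fabp2 and Mogat1. Mogat1 passed the filter on low counts only through the HFD control livers, where it was high, so its place among the 4 was favoured by the filter. Vldlr passed it only through the high-fat livers, as 2 lean libraries reached the minimum, so its place was favoured too. The 4 genes encode a fatty acid translocase, a lipoprotein receptor, a binding protein best known from the intestine and an acyltransferase. The genes of the core synthesis route did not pass the test in that comparison, and neither did Fabp1 or Slc27a2. Between NM-FGF19 and HFD control livers none of the 10 passed the main test, with 0.432% of all genes called. Mogat1 was lower in every NM-FGF19 liver than in every HFD control liver. Groups did not overlap for 5.62% of all genes in that comparison, and the limit from the filter on Mogat1 holds there too. Relative to lean livers, Cd36, Vldlr and Gpam rose in NM-FGF19 livers, but these 3 calls depended on single libraries, as given below. Vldlr was again favoured by the filter.

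The calls come from edgeR's quasi-likelihood test on all 12 libraries, with Benjamini-Hochberg adjustment over the 15274 genes tested and a threshold of 0.05. Levels are CPM, the share of a library's reads scaled to a common total, with totals corrected by edgeR's TMM factors. In HFD control against lean, 8.33% of all genes tested were called, 5.04% higher and 3.29% lower, that is 770 and 502 genes. The 10 genes gave 4 higher and 0 lower, and among the 4 Mogat1 and Vldlr were favoured by the filter, as given above. At an unadjusted p under 0.05, 4 of the 10 were higher and 1 (Lpin1) was lower in that comparison. The share of all genes at an unadjusted p under 0.05 was not computed, so such counts have no background and are not read as a result. DESeq2 called 4 higher and limma voom 3, and both called 0 lower, beside 2220 and 1079 of all genes. In NM-FGF19 against HFD control, 0.432% of genes were called, 0.282% higher and 0.151% lower, and 0 of the 10 were called either way by edgeR. At an unadjusted p under 0.05, 1 was higher (Gpam) and 3 were lower (Cd36, Mogat1 and Dgat1), again with no such share. DESeq2 called 1 higher (Gpam) and 1 lower (Mogat1) there, and limma voom called 0, beside 285 and 51 of all genes. In NM-FGF19 against lean, 1.49% of genes were called, 1.01% higher and 0.484% lower, that is 154 and 74 genes. The 10 genes gave 3 higher, among them Vldlr, which was favoured by the filter, and 0 lower. Before adjustment, 6 of the 10 had an edgeR p below 0.05 and a rise there (Cd36, Vldlr, Fabp1, Fabp2, Mogat1 and Gpam). Another 2, Dgat1 and Lpin1, had such a p and a fall, again with no such share of all genes. DESeq2 called 5 higher and 1 lower (Lpin1) there, and limma voom 1 higher and 0 lower, beside 969 and 112 of all genes.

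Over the 10 genes the median log2 change was 0.32 in HFD control against lean. It was −0.39 in NM-FGF19 against HFD control, and 0.80 when NM-FGF19 livers were set against lean livers. Over all genes tested the medians were −0.0227, −0.000478 and −0.0115 in the same order. With library totals alone in place of TMM factors, the median of all genes became 0.29, −0.13 and 0.17, and the split of calls became 2381 higher to 228 lower for HFD control against lean and 346 to 52 for NM-FGF19 against lean. In NM-FGF19 against HFD control the split was 43 to 23 with TMM factors and 26 to 30 with totals alone. The 3 comparisons share libraries, so their values stand side by side here and none supports another.

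**Figure D1:**
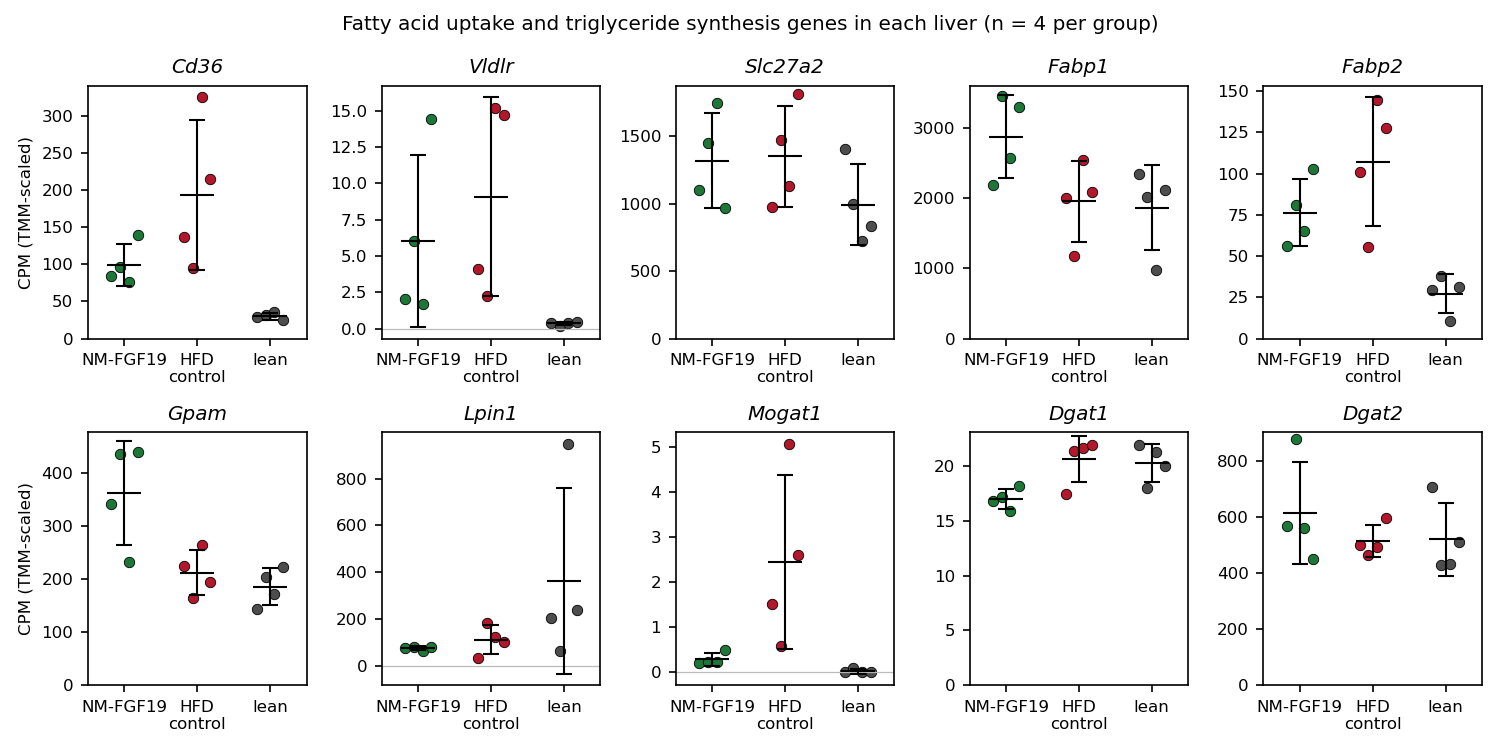
Level of each of the 10 genes in CPM (y axis of each panel, linear) in the 12 livers, with NM-FGF19 left, HFD control in the middle and lean right. Points are single livers, lines are means and bars are SDs (n = 4 per group). Cd36 lies between 24.8 and 35.2 CPM in lean livers and above that in all others, and Lpin1 in lean 3 stands at 949 CPM.

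The windows around the annotated starts of 4 of these genes are shown. Cd36 and Mogat1 are a pair with like patterns, both called higher in HFD control against lean livers. Of the binding proteins Fabp2 and Fabp1, Fabp2 passed the test in that comparison and Fabp1 did not. Each window holds 250 bases before the start and 50 after it, from RefSeq on build GRCm38.p6, read on the strand of the gene. Capitals mark AGGTCA or its complement TGACCT, the hexamer bound by many nuclear receptors. The Cd36 window is chr5:17835847-17836146 on the minus strand, and Cd36 has other annotated starts that are not shown. The Mogat1 window is chr1:78510810-78511109, the Fabp2 window is chr3:122894822-122895121 and the Fabp1 window is chr6:71199629-71199928, all on the plus strand.
Cd36: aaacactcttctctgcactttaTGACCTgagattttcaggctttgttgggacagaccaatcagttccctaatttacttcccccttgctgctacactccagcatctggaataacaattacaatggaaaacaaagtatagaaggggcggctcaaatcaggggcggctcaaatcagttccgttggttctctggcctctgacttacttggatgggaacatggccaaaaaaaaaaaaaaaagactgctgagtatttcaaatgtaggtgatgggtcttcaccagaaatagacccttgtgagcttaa
Mogat1: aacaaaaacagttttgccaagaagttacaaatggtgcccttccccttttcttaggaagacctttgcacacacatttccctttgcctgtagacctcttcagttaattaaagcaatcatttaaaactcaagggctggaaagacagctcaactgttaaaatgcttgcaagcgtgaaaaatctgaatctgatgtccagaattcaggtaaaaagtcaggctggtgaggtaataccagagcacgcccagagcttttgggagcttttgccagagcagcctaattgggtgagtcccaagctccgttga
Fabp2: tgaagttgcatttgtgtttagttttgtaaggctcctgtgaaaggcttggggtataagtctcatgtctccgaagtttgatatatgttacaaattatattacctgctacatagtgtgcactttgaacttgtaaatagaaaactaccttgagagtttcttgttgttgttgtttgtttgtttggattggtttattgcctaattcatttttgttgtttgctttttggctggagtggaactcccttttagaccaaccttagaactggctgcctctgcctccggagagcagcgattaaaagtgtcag
Fabp1: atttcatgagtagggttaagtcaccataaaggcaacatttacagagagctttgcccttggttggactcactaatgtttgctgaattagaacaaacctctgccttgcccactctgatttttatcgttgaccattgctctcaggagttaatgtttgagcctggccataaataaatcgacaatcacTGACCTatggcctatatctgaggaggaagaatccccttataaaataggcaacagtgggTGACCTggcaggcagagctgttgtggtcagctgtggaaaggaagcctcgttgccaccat

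The hexamer occurred 2 times in the Fabp1 window, with first bases at −67 and −9 relative to the start, and 1 time in the Cd36 window, at −228. The Mogat1 and Fabp2 windows did not hold these letters. Of all 32544 mouse windows of this length, 16.2% held the hexamer on either strand. RefSeq windows were at hand for 8 of the 10 genes, 10 windows in all, and those of Slc27a2, Lpin1 and one of the 2 for Gpam also held 1 hexamer, while neither Vldlr window did. None of the 10 windows held the E-box CACGTG, which is in 7.17% of all windows, or AGGTCANAGGTCA on either strand, the hexamer repeated with 1 base between, which is in 0.0399%. A match describes the letters of the window and is not evidence that a factor binds there. Windows for Dgat1 and Dgat2 are not shown.

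Cd36 encodes a membrane glycoprotein that takes up long-chain fatty acids and oxidised lipoproteins, and it is scarce in the liver of lean mice. It had 84.1, 96.5, 76.1 and 139 CPM in NM-FGF19 livers 1 to 4, 137, 95.5, 325 and 215 CPM in HFD control livers, and 28.3, 31, 35.2 and 24.8 CPM in lean livers. All 8 livers on the high-fat diet stood above all 4 lean livers, and the NM-FGF19 and HFD control livers overlapped. Cd36 rose 6.48-fold in HFD control livers against lean livers, with means of 193 ± 101 and 29.8 ± 4.37 CPM (SD, n = 4 each). The log2 change was 2.70 ± 0.34 (SE, edgeR adjusted p = 0.00267), and the call held in each of the 12 fits that left out 1 library. In NM-FGF19 livers the mean was 98.8 ± 27.9 CPM. The log2 change against HFD control was −0.97 ± 0.32, with a 95% interval of −1.66 to −0.27 and an edgeR adjusted p of 0.34. Against lean livers it was 1.73 ± 0.33 (edgeR adjusted p = 0.0247). That call was lost without any one of NM-FGF19 1, NM-FGF19 4 or the 4 lean libraries, with values of 1.52 to 1.84 over all 12 such fits and an edgeR adjusted p of up to 0.0764.

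Vldlr encodes the very low density lipoprotein receptor, which binds triglyceride-rich particles and is normally expressed mainly in heart, muscle and fat. It had 2.04, 6, 1.67 and 14.4 CPM in NM-FGF19 livers, 4.12, 2.26, 15.2 and 14.7 CPM in HFD control livers, and 0.411, 0.186, 0.408 and 0.437 CPM in lean livers. The lean values rest on 12, 4, 8 and 10 reads. Vldlr passed the filter on low counts only through the high-fat groups. All 4 libraries of each reached the minimum, against 2 in lean, so calls of a rise against lean were favoured by the filter. Every liver on the high-fat diet stood above every lean liver, while the levels within both high-fat groups varied widely. The mean was 9.06 ± 6.83 CPM in HFD control livers and 0.36 ± 0.117 CPM in lean livers (SD, n = 4 each), a log2 change of 4.63 ± 0.90 (SE, edgeR adjusted p = 0.0132). The call held in all 12 fits without 1 library, but limma voom gave a log2 change of 4.21 with an adjusted p of 0.104, and without lean 3 and HFD control 3 together edgeR gave 4.33 with an adjusted p of 0.0807. NM-FGF19 livers averaged 6.04 ± 5.93 CPM, a log2 change of −0.58 ± 0.71 against HFD control (95% interval −2.13 to 0.96, edgeR adjusted p = 0.892). This change became −1.49 without NM-FGF19 4. Against lean livers the log2 change was 4.04 ± 0.89 (edgeR adjusted p = 0.0496). It stayed under the threshold in 2 of the 12 fits without 1 library, those without NM-FGF19 3 and without HFD control 2, and in the other fits reached an edgeR adjusted p of up to 0.117.

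Slc27a2 encodes a transporter that also activates very long-chain fatty acids and is abundant in liver. Its level was 1105, 1450, 1750 and 968 CPM in NM-FGF19 livers, 979, 1475, 1135 and 1818 CPM in HFD control livers, and 1410, 998, 726 and 838 CPM in lean livers. The 3 groups overlapped. For HFD control against lean livers the log2 change was 0.44, with a 95% interval of −0.12 to 1.01. It was −0.04 in NM-FGF19 against HFD control livers (interval −0.60 to 0.52), and 0.41 in NM-FGF19 against lean livers (−0.15 to 0.97). None of the 3 passed the test (edgeR adjusted p = 0.322, 0.988 and 0.466). Gm26697 overlaps Slc27a2 on the other strand.

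Fabp1, the liver fatty acid binding protein, had the highest level per length of the 10 genes in every group. It had 2194, 3455, 2578 and 3300 CPM in NM-FGF19 livers, 2010, 1175, 2549 and 2094 CPM in HFD control livers, and 2350, 2021, 983 and 2115 CPM in lean livers. NM-FGF19 2, 3 and 4 stood above the other 9 livers and NM-FGF19 1 lay among them. The log2 change against HFD control was 0.56 ± 0.29, with a 95% interval of −0.06 to 1.17 (SE, edgeR adjusted p = 0.614). Against lean livers it was 0.63 ± 0.29 (edgeR adjusted p = 0.291). Between HFD control and lean livers it was 0.07, with an interval of −0.55 to 0.68 (edgeR adjusted p = 0.912).

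Fabp2, the intestinal fatty acid binding protein, is best known from enterocytes. In these livers it had 56.2, 81.3, 65.3 and 103 CPM in NM-FGF19 mice, 101, 55.5, 145 and 128 CPM in HFD control mice, and 29.6, 37.8, 10.5 and 31 CPM in lean mice. All livers on the high-fat diet were above all lean livers. Fabp2 rose 3.94-fold in HFD control livers, with means of 107 ± 39.1 CPM there and 27.2 ± 11.7 CPM in lean livers (SD, n = 4 each). The log2 change was 1.98 ± 0.38 (SE, edgeR adjusted p = 0.0127), and the call held in all 12 fits without 1 library. In NM-FGF19 livers the mean was 76.5 ± 20.5 CPM, with log2 changes of −0.49 ± 0.37 against HFD control and 1.49 ± 0.38 against lean (edgeR adjusted p = 0.78 and 0.0749). DESeq2 called the change against lean (adjusted p = 0.00209), and over all 22 alternative settings the adjusted p ran up to 0.187. A gene on the other strand overlaps Fabp2 and may share reads with it. Markers of enterocytes, fixed as Vil1, Lct, Alpi, Cdx1, Cdx2, Sis and Mep1a, summed to 0.239 to 0.494 CPM in NM-FGF19 livers, 0.0568 to 0.174 CPM in HFD control livers and 0 to 0.262 CPM in lean livers. Alpi, Cdx1 and Cdx2 had no read in any library.

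The balance of the binding proteins was also read as a ratio within each liver, into which no scaling between libraries enters. Fabp2 gave 0.0256, 0.0235, 0.0253 and 0.0312 reads per Fabp1 read in NM-FGF19 livers, 0.0503, 0.0472, 0.0569 and 0.0611 in HFD control livers, and 0.0126, 0.0187, 0.0107 and 0.0147 in lean livers. No groups overlapped, with means of 0.0264 ± 0.00333 in NM-FGF19, 0.0539 ± 0.0063 in HFD control and 0.0142 ± 0.00343 in lean livers (SD, n = 4 each). The ratio was formed after the levels of both genes had been seen, and it is given without a test. It shows a balance of the pair that differed between groups, and not which of the genes differed. How many other pairs of genes separate the groups as fully was not computed.

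**Figure D2:**
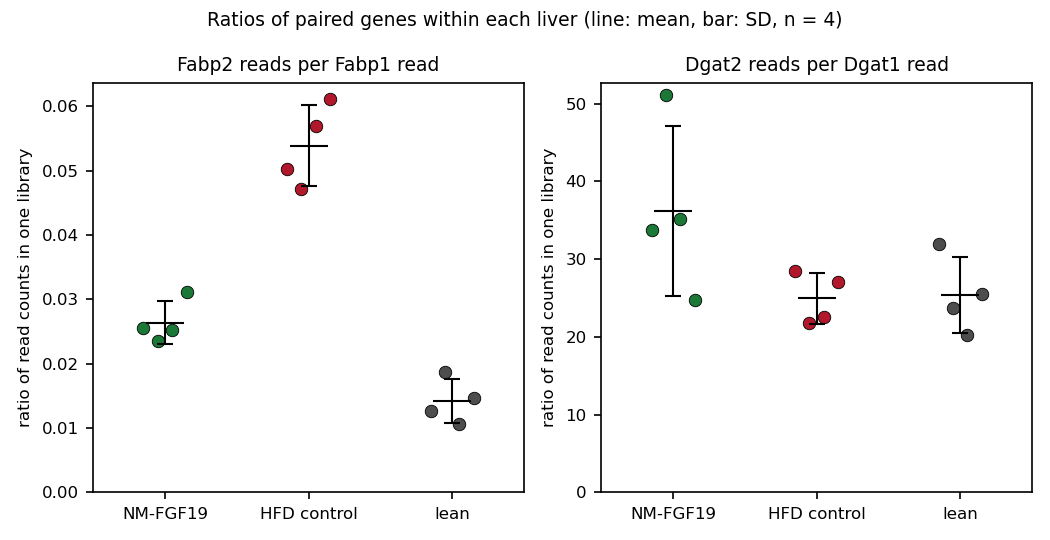
Reads of Fabp2 per read of Fabp1 (left) and of Dgat2 per read of Dgat1 (right) within each liver, on linear axes from 0, with NM-FGF19 left, HFD control in the middle and lean right in each panel. Points are livers, lines means and bars SDs (n = 4). The Fabp2 ratios do not overlap between groups, with HFD control livers at 0.0472 to 0.0611, and the Dgat2 ratios overlap.

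Gpam encodes the mitochondrial glycerol-3-phosphate acyltransferase that starts glycerolipid synthesis. Its level was 341, 436, 232 and 439 CPM in NM-FGF19 livers, 224, 164, 263 and 194 CPM in HFD control livers, and 143, 203, 172 and 222 CPM in lean livers. NM-FGF19 1, 2 and 4 stood above all 8 other livers of both control groups, and NM-FGF19 3 stood above all lean livers and below HFD control 3. The log2 change against HFD control was 0.78 ± 0.22, with a 95% interval of 0.31 to 1.25, and did not pass edgeR's test (adjusted p = 0.205), while DESeq2 called it (adjusted p = 0.0449). Over all 22 alternative settings the adjusted p ran up to 0.524. Against lean livers Gpam rose, with means of 362 ± 98.1 CPM in NM-FGF19 and 185 ± 34.7 CPM in lean livers (SD, n = 4 each) and a log2 change of 0.97 ± 0.22 (SE, edgeR adjusted p = 0.0479). That call held in 3 of the 12 fits without 1 library, those without NM-FGF19 3, HFD control 2 or HFD control 3. Over the 12 fits the change was 0.86 to 1.14, with an edgeR adjusted p of up to 0.119. HFD control livers averaged 211 ± 42.2 CPM, a log2 change of 0.19 against lean with an interval of −0.28 to 0.66 (edgeR adjusted p = 0.649). AC110206.1 overlaps Gpam on the other strand and held few reads in every group.

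Lpin1 encodes a phosphatidate phosphatase that makes diacylglycerol and also acts as a transcriptional co-regulator. It had 74.6, 80.2, 62.5 and 79.4 CPM in NM-FGF19 livers, 31.6, 182, 123 and 103 CPM in HFD control livers, and 203, 63.9, 949 and 238 CPM in lean livers. The NM-FGF19 livers lay close together, and lean 3 stood far above every other liver. Its log2 change was −1.72 ± 0.70 in HFD control against lean livers, −0.57 ± 0.69 in NM-FGF19 against HFD control livers and −2.29 ± 0.72 in NM-FGF19 against lean livers (SE, edgeR adjusted p = 0.157, 0.892 and 0.134). Without lean 3 the changes against lean became −0.59 for HFD control and −1.17 for NM-FGF19. DESeq2 called the change between NM-FGF19 and lean (adjusted p = 0.0326), and over the 22 alternative settings the adjusted p ran up to 0.357.

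Clock genes were read beside Lpin1, because their levels also varied widely among mice of one group. Arntl, the clock activator BMAL1, had 16.2, 1.85, 14 and 3.89 CPM in NM-FGF19 livers, 3.27, 16.8, 2.29 and 1.87 CPM in HFD control livers, and 0.958, 14.8, 33.5 and 35.3 CPM in lean livers. Its output gene Dbp had 35.5, 134, 42.3 and 103 CPM in NM-FGF19 livers, 56.3, 23.1, 85.9 and 92.1 CPM in HFD control livers, and 135, 47.7, 4.79 and 6.99 CPM in lean livers. Within each group, the livers with the higher Arntl levels had the lower Dbp levels, with lean 3 and lean 4 close to each other in both. Of the 14 clock genes listed, 0 were called by edgeR in each comparison, where at most 8.33% of all genes were called. HFD control 2 had both the highest Arntl and the highest Lpin1 of its group. Lean 3 had 33.5 CPM of Arntl and 949 CPM of Lpin1, and lean 4 had 35.3 and 238 CPM. In NM-FGF19 livers Arntl ran from 1.85 to 16.2 CPM and Lpin1 from 62.5 to 80.2 CPM. The part of time of day or feeding state in the Lpin1 levels was not tested.

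Mogat1 encodes monoacylglycerol acyltransferase 1, which is scarce in healthy mouse liver. It had 6, 6, 7 and 15 reads in NM-FGF19 livers, or 0.204, 0.231, 0.234 and 0.494 CPM. HFD control livers had 58, 20, 190 and 92 reads, or 1.53, 0.579, 5.07 and 2.61 CPM. Lean livers had 0, 2, 0 and 0 reads, or at most 0.0928 CPM. No groups overlapped: every HFD control liver stood above every NM-FGF19 liver, and these stood above every lean liver. The gene passed the filter on low counts only through the HFD control group, where all 4 libraries reached the minimum, against 1 in NM-FGF19 and 0 in lean. A gene that entered in this way had to be high in HFD control livers. BC035947 overlaps it on the other strand and may share reads with it.

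Mogat1 rose in HFD control livers against lean livers, with a fitted log2 change of 6.57 ± 0.95 (SE, edgeR adjusted p = 0.00317) that held in all 12 fits without 1 library and became 9.22 without lean 2. With 360 reads in the HFD control group and 2 in the lean group, the ratio of pooled reads, scaled by the pooled TMM-corrected library sizes, was 116, with an exact 95% interval of 31.8 to 959 for counting error alone. The 34 reads of the NM-FGF19 group gave a ratio of 13.7 to the lean group on the same scale (interval 3.51 to 118). The fitted log2 change between these groups was 3.52 ± 1.07 (edgeR adjusted p = 0.113), and 6.16 without lean 2. Fitted changes against a group with 2 reads depend on the settings of the fit and are no bound. Between NM-FGF19 and HFD control livers the log2 change was −3.05 ± 0.67, with a 95% interval of −4.49 to −1.61 and means of 0.291 ± 0.136 and 2.45 ± 1.93 CPM (SD, n = 4 each). It did not pass edgeR's test (adjusted p = 0.078). It passed with DESeq2 (−3.08, adjusted p = 0.00075), without the filter on low counts (edgeR adjusted p = 0.0302) and without HFD control 2 (−3.37, edgeR adjusted p = 0.0308). Over the 12 fits without 1 library it was −3.43 to −2.41, with an edgeR adjusted p of up to 0.281. Of all genes tested, 5.62% had groups that did not overlap in this comparison, and Mogat1 was the 1 of the 10 that did so.

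In HFD control against lean, 15.3% of all genes tested had groups that did not overlap, and 4 of the 10 did: Cd36, Vldlr, Fabp2 and Mogat1. Mogat1 passed the filter only through the HFD control livers and Vldlr only through the high-fat livers, so the filter favoured both in this count. In NM-FGF19 against lean the share was 10.3% of all genes, and 5 of the 10 did: Cd36, Vldlr, Fabp2, Mogat1 and Gpam. Vldlr was favoured by the filter in that count too.

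Dgat1 and Dgat2 encode unrelated enzymes that both add the last fatty acid to diacylglycerol. Dgat1 had 16.8, 17.2, 15.9 and 18.2 CPM in NM-FGF19 livers, 17.5, 21.4, 21.7 and 22 CPM in HFD control livers, and 22, 18, 21.3 and 20 CPM in lean livers. It varied least of the 10 genes, and the NM-FGF19 livers overlapped both other groups only at their edges. The log2 change was −0.28 ± 0.11 against HFD control, with a 95% interval of −0.52 to −0.04, and −0.26 ± 0.11 against lean (SE, edgeR adjusted p = 0.464 and 0.271). Between HFD control and lean livers it was 0.02, with an interval of −0.22 to 0.26 (edgeR adjusted p = 0.926).

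Dgat2 had 568, 876, 559 and 451 CPM in NM-FGF19 livers, 500, 465, 491 and 595 CPM in HFD control livers, and 705, 428, 433 and 511 CPM in lean livers. The groups overlapped throughout. Its log2 change was −0.02 in HFD control against lean livers (interval −0.48 to 0.45), 0.26 in NM-FGF19 against HFD control livers (−0.21 to 0.72) and 0.24 in NM-FGF19 against lean livers (−0.22 to 0.71). None passed the test (edgeR adjusted p = 0.973, 0.812 and 0.621). There were 36.2 ± 10.9 reads of Dgat2 per read of Dgat1 in NM-FGF19 livers, 25 ± 3.29 in HFD control livers and 25.4 ± 4.89 in lean livers (SD, n = 4 each), and the groups overlapped.

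**Figure D3:**
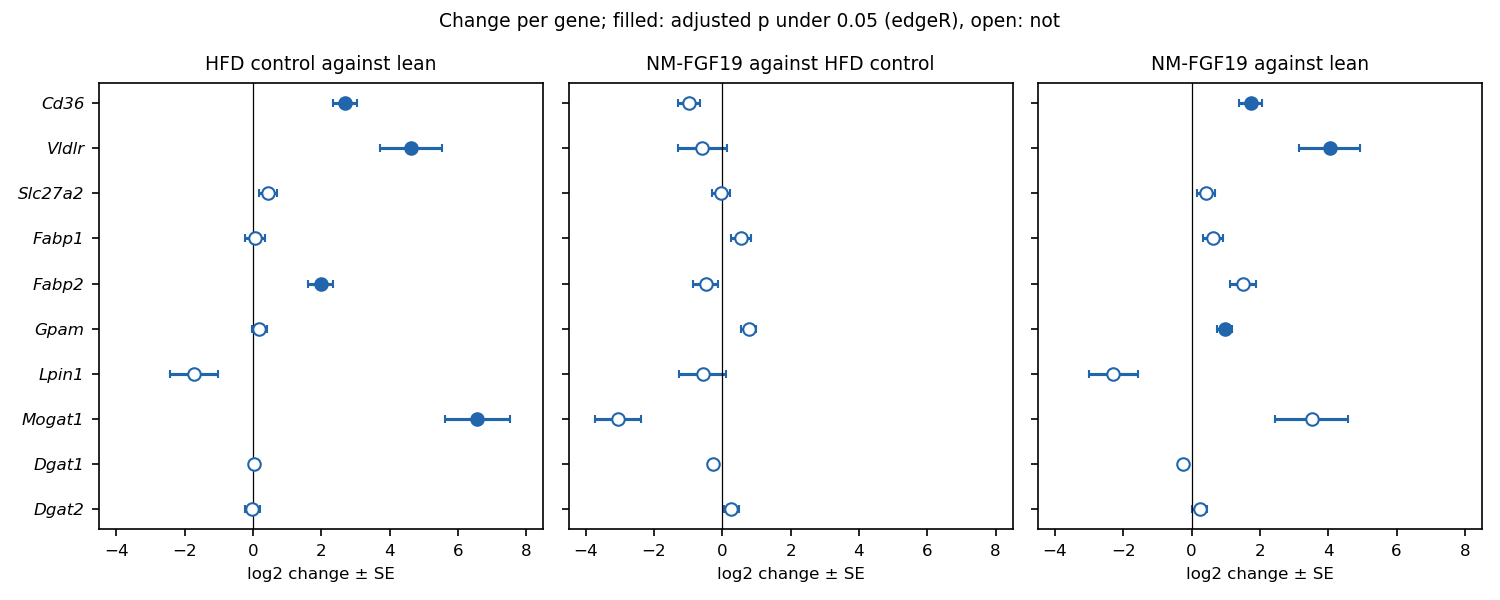
Log2 change (x axis) of the 10 genes (y axis) in the 3 comparisons, 1 panel each, with bars for the SE from edgeR. Filled symbols mark an adjusted p under 0.05. Cd36, Vldlr, Fabp2 and Mogat1 are called in HFD control against lean, and no gene is called in NM-FGF19 against HFD control.

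Per kilobase of exon, the mean level in NM-FGF19 livers was 5211 CPM for Fabp1, 351 for Slc27a2, 199 for Dgat2, 79.2 for Fabp2, 54.3 for Gpam, 27.5 for Cd36, 7.67 for Lpin1, 5.58 for Dgat1, 0.6 for Vldlr and 0.187 for Mogat1. In HFD control livers the order was Fabp1 at 3539 CPM per kilobase, Slc27a2 at 360, Dgat2 at 166, Fabp2 at 111, Cd36 at 53.8, Gpam at 31.7, Lpin1 at 11.4, Dgat1 at 6.76, Mogat1 at 1.57 and Vldlr at 0.9. In lean livers Fabp1 had 3377 CPM per kilobase, Slc27a2 265, Dgat2 168, Lpin1 37.6, Fabp2 28.2, Gpam 27.8, Cd36 8.31, Dgat1 6.66, Vldlr 0.0358 and Mogat1 0.0149. Fabp1 stood above all others in every liver. Neighbours whose livers overlapped on this scale were Slc27a2 with Dgat2, Fabp2 with Gpam, Gpam with Cd36 and Vldlr with Mogat1 in NM-FGF19 livers. In HFD control livers they were Fabp2 with Cd36, Cd36 with Gpam, Lpin1 with Dgat1 and Mogat1 with Vldlr. In lean livers they were Slc27a2 with Dgat2, Lpin1 with Fabp2, Fabp2 with Gpam, Cd36 with Dgat1 and Vldlr with Mogat1. Cd36 stood above Gpam on average in HFD control livers and below it in the other groups.

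Within the HFD control group the same livers were often high or low. HFD control 3 had the highest level of its group for 6 of the 10 genes (Cd36, Vldlr, Fabp1, Fabp2, Mogat1 and Gpam). HFD control 2 had the lowest for 7 (the same 6 and Dgat2), and the highest for Lpin1. Among NM-FGF19 livers, NM-FGF19 4 was highest for 6 (Cd36, Vldlr, Fabp2, Mogat1, Dgat1 and Gpam) and NM-FGF19 3 lowest for 5. Markers of recruited and lipid-associated macrophages summed to 572 CPM in HFD control 3, against 225 to 281 CPM in the other HFD control livers, and to 270 CPM in NM-FGF19 4, against 135 to 201 CPM in the other NM-FGF19 livers. Markers of stellate cells and fibroblasts summed to 1047 CPM in HFD control 3, against 419 to 539 CPM in the others, and to 886 CPM in NM-FGF19 4, against 299 to 612 CPM. Over all genes, the libraries farthest from their own groups were lean 3, HFD control 3, NM-FGF19 4 and HFD control 2. The part of these features in the levels of the 10 genes was not tested.

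**Figure D4:**
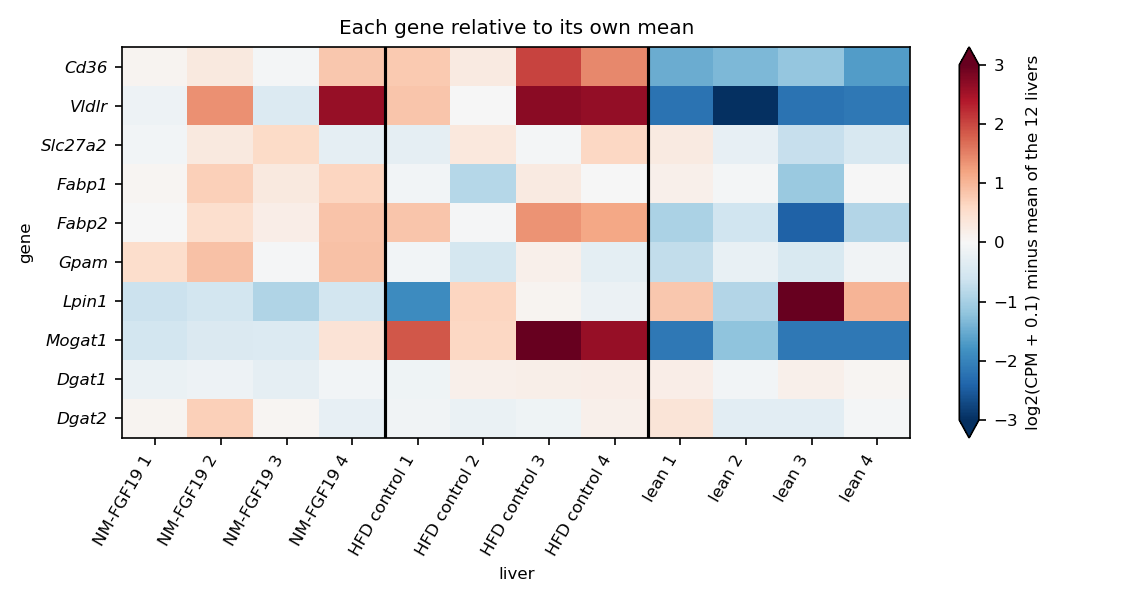
Level of the 10 genes (rows) in the 12 livers (columns; NM-FGF19 left, HFD control in the middle, lean right) as log2 of CPM plus 0.1, centred on each gene's mean over the livers, with colours that stop changing beyond 3 in either direction. Cd36, Vldlr, Fabp2 and Mogat1 are lower in lean livers, and HFD control 3 is the highest of its group in 6 genes.

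Hepatocyte markers were abundant in every library, with Alb at 55018 to 92786 CPM in NM-FGF19, 24364 to 41960 CPM in HFD control and 45760 to 63188 CPM in lean livers, in keeping with the label of liver. The 12 hepatocyte markers together made up 112219 to 165584 CPM in NM-FGF19, 67409 to 91808 CPM in HFD control and 105898 to 148588 CPM in lean livers, and 2 of the 12 (Serpina1a and Ambp) fell in HFD control livers against lean livers. In these bulk samples, fewer cells of a type and less RNA per cell cannot be told apart. Beside the marker counts given here, 8.33% of all genes were called in HFD control against lean and 1.49% in NM-FGF19 against lean. Of 10 recruited and lipid-associated macrophage markers, 8 rose in HFD control and 4 in NM-FGF19 livers against lean livers. Their sums were 135 to 270 CPM in NM-FGF19, 225 to 572 CPM in HFD control and 89.2 to 350 CPM in lean livers. The highest lean sum was in lean 3, where Spp1, not among those called, had 251 CPM. Of 8 resident Kupffer cell markers, 5 fell in HFD control livers. Sums of the 8 were 162 to 443 CPM in NM-FGF19, 175 to 615 CPM in HFD control and 494 to 675 CPM in lean livers. In HFD control 3, with 615 CPM, Cd5l had 392 CPM and C1qa 153 CPM, and neither was among the 5. Of 8 stellate cell and fibroblast markers, 4 rose in HFD control and 2 in NM-FGF19 livers against lean livers, with sums of 299 to 886, 419 to 1047 and 191 to 247 CPM in NM-FGF19, HFD control and lean livers. Endothelial markers summed to 498 to 581 CPM in NM-FGF19, 509 to 583 CPM in HFD control and 433 to 485 CPM in lean livers, and 2 of 9 (Pecam1 and Eng) rose in HFD control livers. Cd36 is also expressed by macrophages and endothelial cells, and the part of these cells in its level was not tested.

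Cd36, Vldlr and Mogat1 are also expressed in fat tissue. The adipocyte hormone gene Lep had no read in any library, and Adipoq, Plin1 and Retn had at most 0.0928, 0.102 and 0.107 CPM in any library. The 8 adipocyte markers together summed to 22.2 to 45.3 CPM in NM-FGF19, 19 to 275 CPM in HFD control and 14.2 to 18.3 CPM in lean livers. Most of the lean sum was Adrb3, at 13 to 15.6 CPM. Of the 4 markers tested, Cfd, Cidec and Cidea rose in HFD control livers against lean livers, where 8.33% of all genes were called. Adrb3 was not called, with means of 23 CPM in NM-FGF19, 12.1 CPM in HFD control and 14.3 CPM in lean livers. Cidec and Cidea encode lipid droplet proteins that steatotic hepatocytes also express. Cfd fell in NM-FGF19 livers against HFD control livers, where 0.432% of all genes were called. The highest sum of the list, 275 CPM, was in HFD control 3, where Cidec alone had 199 CPM. Skeletal muscle markers summed to at most 2 CPM in any library. Of 5 bile duct markers tested 1 (Sox9) fell in HFD control livers against lean livers, where 3.29% of all genes were called lower.

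Other genes of uptake, intracellular binding and activation of fatty acids were read from a list of 30, of which 26 were tested. In HFD control livers against lean livers 2 rose, 3 fell and 21 did not pass the test, with a median log2 change of −0.15. Over all genes tested, 8.33% were called in that comparison. Lpl, the lipoprotein lipase that frees fatty acids from lipoproteins and is also on the macrophage list, had means of 126 ± 44.1 CPM in HFD control and 37.2 ± 11 CPM in lean livers, a log2 change of 1.76 ± 0.27 (edgeR adjusted p = 0.00511). Slc27a1, a transporter best known from muscle and fat, had a log2 change of 0.95 ± 0.22 (edgeR adjusted p = 0.0198), which lost its call without HFD control 4 or without lean 2. The lipolysis-stimulated lipoprotein receptor Lsr fell by 1.13 ± 0.21 on the log2 scale (edgeR adjusted p = 0.0103), with means of 62.7 ± 18.1 CPM in HFD control and 137 ± 36.6 CPM in lean livers. Fabp5, whose reads may be split with near-identical copies, fell by 2.67 ± 0.62 (edgeR adjusted p = 0.0261), but lost its call without any one of the 4 HFD control libraries or of lean 2, 3 and 4. Cav1, the caveolae protein caveolin-1, fell by 1.09 ± 0.32 (edgeR adjusted p = 0.0492), a call that held in 2 of 12 fits without 1 library. In NM-FGF19 against HFD control and against lean, 0 of the 26 were called by edgeR, with medians of −0.05 and 0.06. The shares of all genes called there were 0.432% and 1.49%. The mean of Lpl in NM-FGF19 livers was 62.1 ± 13.8 CPM, a log2 change of −1.02 ± 0.27 against HFD control (edgeR adjusted p = 0.166).

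Of 24 other genes for glycerol handling and acyl transfer, 22 were tested. In HFD control livers against lean livers 2 rose, 0 fell and 20 did not pass, with a median log2 change of 0.10. The share of all genes called there was 8.33%. In NM-FGF19 livers against lean livers 0 of the 22 were called, with a median of 0.01, beside 1.49% of all genes. In NM-FGF19 livers against HFD control livers 0.432% of all genes were called. There 0 of the 22 rose, 1 fell and 21 did not pass, with a median of −0.17. The called gene was Gk, which encodes glycerol kinase, the source of glycerol 3-phosphate from free glycerol. It had 64.8, 61.7, 67.1 and 60.2 CPM in NM-FGF19 livers, 87.6, 87.8, 105 and 109 CPM in HFD control livers, and 67.8, 59.9, 70.9 and 52.7 CPM in lean livers. All HFD control livers stood above all other livers. The log2 change was −0.62 ± 0.12 for NM-FGF19 against HFD control and 0.63 ± 0.12 for HFD control against lean (SE, edgeR adjusted p = 0.0452 and 0.0111). The call against lean held in all 12 fits without 1 library, whereas that of NM-FGF19 against HFD control held in 3 (without HFD control 2, lean 3 or lean 4), with an edgeR adjusted p of up to 0.182 in the others. Agpat1, which adds the second fatty acid, rose in HFD control livers (log2 change 0.68 ± 0.16, edgeR adjusted p = 0.0234) and lost its call without HFD control 1, HFD control 3 or lean 2.

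Of 21 regulators of these pathways, edgeR called 0 in either comparison of NM-FGF19 livers. Of all genes, 0.432% were called against HFD control and 1.49% against lean. In HFD control livers against lean livers, where 8.33% of all genes were called, 0 rose and 1 fell, with a median log2 change of −0.10. The 1 called was the stress-response factor Atf4 (−0.69 ± 0.18, edgeR adjusted p = 0.0355), whose call held in 4 of 12 fits without 1 library. Pparg, which encodes PPARγ, had 3.54, 5.23, 3.98 and 11.9 CPM in NM-FGF19 livers, 16.4, 8.98, 24.7 and 16.4 CPM in HFD control livers, and 5.75, 6.96, 9.89 and 4.19 CPM in lean livers. HFD control 3 and NM-FGF19 4 were the highest of their groups, as they were for Cd36, Vldlr, Fabp2, Mogat1 and Gpam. Its log2 change was 1.32 ± 0.41 for HFD control against lean and −1.43 ± 0.41 for NM-FGF19 against HFD control, and neither passed the test (edgeR adjusted p = 0.0687 and 0.231). DESeq2 called both (adjusted p = 0.013 and 0.0254). Pparg was also called by edgeR without NM-FGF19 4 in both comparisons (adjusted p = 0.0234 and 0.0449). For HFD control against lean it was called as well with library totals alone, with only these groups in the fit and without HFD control 2. Over the 22 alternative settings the adjusted p ran up to 0.186 in HFD control against lean and 0.597 in NM-FGF19 against HFD control. For NM-FGF19 against lean the log2 change of Pparg was −0.12 (edgeR adjusted p = 0.923). The part of Pparg in the levels of the 10 genes was not tested.

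The profiles most like those of 4 of the genes were found over the 12 livers, as the smallest root mean square distance between log2 levels scaled to z-scores. The search covered 10987 genes that passed the filter on low counts and averaged 2 CPM or more. Genes with provisional symbols, such as Gm and Rik names, were left out of it. Nearest to Cd36 were Crat, which encodes carnitine acetyltransferase, at a distance of 0.258, Laptm4b at 0.27 and Incenp at 0.272. Among the 10 genes themselves, Mogat1 lay at 0.297 from Cd36 and Vldlr at 0.321. Nearest to Mogat1 were Nmt2 at 0.238, Clstn3 at 0.282 and Cd36. Clstn3 had means of 13 CPM in NM-FGF19, 54.3 CPM in HFD control and 6.21 CPM in lean livers. Nearest to Gpam were Anxa4 at 0.473, Ces2e at 0.475 and Entpd6 at 0.505, and nearest to Fabp1 were Gypc at 0.345, Gstt1 at 0.348 and Echdc3 at 0.375. The distances are descriptions over 12 livers that share groups, and they carry no test.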

How the data were processed

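The authors trimmed reads with Trimmomatic, aligned them with STAR and counted them per gene with featureCounts on build mm39 of the mouse genome, per the submitters' processing notes. The deposited values are raw read counts. Not given in the sources used here are tool versions, the annotation, and whether counting used strand. A stranded mRNA kit was used on 100 ng of RNA, and pairs of 101 nt were sequenced, per the labels' protocols. All 12 columns were matched to samples by their names. Totals were 23743415 to 33257260 counts per library, with the HFD control libraries the deepest, and TMM factors 0.779 (lean 3) to 1.17. Whether each library is 1 mouse is not stated, so p-values measure the spread between these samples. Counts of replicates differed with a chi-square per degree of freedom of at least 40.7, so no library was a copy of another.

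The test across genes was that of edgeR 4.0.16, run in R 4.3.3 (robust quasi-likelihood F test, TMM, filterByExpr with a minimum count of 10), 2-sided, in 1 fit of 12 samples with group as the only term. Benjamini-Hochberg adjustment ran over 15274 genes within each comparison. SEs are those implied by the F statistics, and 95% intervals follow from them. The nearest profiles used log2 CPM with a prior count of 2. Counting intervals and the ratios from few reads cover counting error only. The script was tested on simulated data with 200 changed genes. Alternatives were DESeq2 1.42.0, limma 3.58.1 voom, other scalings and filters, other samples in the fit, a replicate block, and fits without single libraries.

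Exon lengths, chromosomes and overlaps came from GENCODE vM21 on GRCm38, an older build than that of the counts, and promoter windows from RefSeq on GRCm38.p6. All 10 genes had an exon length. Gene symbols were matched for 52083 of 55359 IDs. The named genes are all 10 members, the called genes of the other pathway lists, the most abundant and absent cell type markers, and the 3 nearest profiles of 4 members. Pparg, the clock genes, markers of high or low level and the Fabp2 to Fabp1 ratio were named after their values were seen. The members and lists were chosen with earlier results of these data known. Mice killed before treatment were not analysed here.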

Additional observations from a re-analysis of the deposited data

Results flagged for a closer look

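In each group of 4, the highest and the lowest liver of each of the 10 genes were compared with the next one, and a liver was singled out where that gap, as a share of the group's range, exceeded Dixon's 95% critical value. This happened in 4 of 30 gene and group pairs. Chance alone gives about 1 in 20 for continuous normal values, a rate that does not hold where a group has few reads. Mogat1 and Vldlr in lean livers have few, so the 4 are not set against that rate. Mogat1 stood at 0.494 CPM in NM-FGF19 4, the highest of its group, with the next liver at 0.234 CPM. In lean 2 it stood at 0.0928 CPM, which is 2 reads, with 0 in the other lean livers. Vldlr stood at 0.186 CPM in lean 2, the lowest of its group, with the next at 0.408 CPM, values that rest on 4 and 8 reads. Dgat1 stood at 17.5 CPM in HFD control 1, the lowest of its group, with the next at 21.4 CPM.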

How the results depend on the processing

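Over 22 other settings, the 10 genes gave 656 values, of which 611 kept their side of the threshold, 38 lost the call and 7 gained one. Among the 611, some uncalled values changed sign, as for Fabp1 in HFD control against lean (−0.28 to 0.36). As a called value 0 changed direction. DESeq2 called 2220 genes in HFD control against lean, 285 in NM-FGF19 against HFD control (members: 1 higher, 1 lower) and 969 in NM-FGF19 against lean (members: 5 higher, 1 lower), against 1272, 66 and 228 in the main test. For NM-FGF19 against lean, limma voom called 112 genes, with 1 member higher. Library totals alone gave 2609 genes for HFD control against lean and 398 for NM-FGF19 against lean. Without the filter on low counts, 1 member was lower in NM-FGF19 against HFD control and 1 higher in NM-FGF19 against lean. With only the groups compared in the fit, NM-FGF19 against HFD control gave 38 genes and NM-FGF19 against lean 117, with 1 member higher. Without lean 3 and HFD control 3, the counts were 480 genes for HFD control against lean and 38 for NM-FGF19 against HFD control, and 1 member was higher in NM-FGF19 against lean. The cause of these shifts was not tested. Leaving out 1 library at a time gave 537 to 1528 genes, 4 to 4 members higher and 0 to 0 lower for HFD control against lean, 18 to 84 genes, 0 to 0 higher and 0 to 1 lower for NM-FGF19 against HFD control, and 67 to 273 genes, 0 to 3 higher and 0 to 0 lower for NM-FGF19 against lean. Samples with the same replicate number did not deviate together (correlations of −0.363 to 0.0712), so the numbers do not pair them. With the replicate number as a block, the counts were 593, 18 and 40 genes in the 3 comparisons and 0 members higher in NM-FGF19 against lean. The stricter filter left Mogat1 untested, and so did the fit of NM-FGF19 and lean alone. Reads of Mogat1 and of Vldlr in lean livers are too few for precise ratios.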

Other observations

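Of 11 genes of triglyceride breakdown, 1 rose and 0 fell in HFD control livers against lean livers, with a median log2 change of 0.11. Over all genes tested, 8.33% were called there. The 1 that rose was Abhd6, a monoacylglycerol lipase, with means of 29.8 ± 7.76 CPM in HFD control and 17.6 ± 2.77 CPM in lean livers (log2 change 0.76 ± 0.18, edgeR adjusted p = 0.0232), and it lost its call without HFD control 3, HFD control 4 or lean 2. In NM-FGF19 livers edgeR called 0 of the 11 against HFD control and against lean, with medians of −0.19 and 0.20. The shares of all genes called there were 0.432% and 1.49%, so a count of 0 among 11 says little.

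Some of the 10 genes overlap a gene on the other strand in the older annotation, and how strand was used in counting is not given. BC035947, which overlaps Mogat1, had 4, 0, 0 and 0 reads in NM-FGF19 livers, 4, 1, 33 and 14 reads in HFD control livers and 0 in lean livers, so that its highest library was HFD control 3, as for Mogat1. The gene 4933405D12Rik, which overlaps Fabp2, had 13 reads in NM-FGF19, 45 in HFD control and 8 in lean livers in all. AC110206.1, which overlaps Gpam, had 62, 40 and 31 reads in NM-FGF19, HFD control and lean livers.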
